A study of Mus musculus with 3 samples.

Results

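The protein-coding genes of the mouse were sorted by whether wild-type H2A.Z, trimethylated lysine 27 of histone H3 (H3K27me3), both or neither had been called at their promoters in embryonic stem cells (ESCs). A promoter was the sequence within 2 kb on each side of the most upstream transcription start of the gene, a window of 4001 bp, and a gene counted as called when a region of the list covered at least 1 bp of it. Of the 22380 protein-coding genes in the GENCODE vM1 annotation of the mm9 assembly, the 30 on chromosomes Y and M were left out and the other 22350 were counted. The rule used no measured value beyond the calls that define the classes, and those class sizes are therefore a description.

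The study asked what the acidic patch of H2A.Z does in ESCs, and its 3 ChIP-Seq samples were 1 library each of wild-type H2A.Z, of the acidic patch mutant H2A.Z-AP3 and of H3K27me3. The H2A.Z library came from KH2 ESCs transduced with a lentiviral construct for wild-type H2A.Z tagged with YFP at its C terminus, under an rtTA-dependent CMV promoter induced with 1 µg/ml doxycycline. Endogenous H2A.Z had been depleted in these cells by hairpins against its 3′ untranslated region, YFP-positive cells had been sorted, and the tagged protein was precipitated with an anti-GFP antibody, so the list shows the transgenic protein only. The H3K27me3 library has the genotype label WT and an antibody against the modification. The strain label of both is V6.5 (129SvJaexC57BL/6) from male ESCs, whereas the treatment label names KH2, so that line, transgene and antibody cannot be told apart from the difference between the lists. ESCs were grown on irradiated fibroblast feeders, which were omitted in the final passage.

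Each library is present as regions called at a P threshold of 1e-9, with a stricter list at 1e-12. The regions carry no read count, height or P value, so depth is unknown and an uncalled promoter means only that the list held no region there. The lists are not nested, since some promoters had a region at 1e-12 and none at 1e-9. The reason for this was not tested. With 1 library per group there is no replicate, and no test between the lists was made. The 95% Wilson intervals given with shares cover counting error only and treat genes as independent, although 3800 genes (17.0%) had the most upstream start of another gene within 4 kb. These are bulk cultures, in which a promoter with both calls may hold H2A.Z and H3K27me3 in the same cells or in different ones.

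H2A.Z is a variant of histone H2A that is exchanged into the nucleosomes flanking transcription starts, at active and at silent genes. H3K27me3 is deposited by Polycomb repressive complex 2, mostly at CpG-rich promoters of developmental regulators that are kept silent. In ESCs many of these promoters also carry trimethylated lysine 4 of histone H3 and are called bivalent, and they are known to be occupied by H2A.Z.

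The stretch of 30 bases that ends just before the start is printed for 5 genes, because these genes return in the results. They are the gene with the most sequence covered by both lists, the broadest gene at which both lists were called without sharing a base, the broadest genes with H2A.Z alone and with H3K27me3 alone, and the pluripotency gene Pou5f1. All were read from mm9 in the direction of the gene, with CpG dinucleotides in capitals. Tlx2 lies at chr6:83020288-83020317 on the minus strand, Hey1 at chr3:8667040-8667069 (minus), Pgf at chr12:86518247-86518276 (minus), Wnt10a at chr1:74838060-74838089 (plus) and Pou5f1 at chr17:35642952-35642981 (plus).
Tlx2, both lists: ctactgCGaccccCGccCGcCGCGctcctt
Hey1, both lists: cctctcCGccttcccCGccctccccctatc
Pgf, H2A.Z only: tgaaaaccagCGgcCGactagcttcagttc
Wnt10a, H3K27me3 only: aatagccaagatgccagtacctctccttcc
Pou5f1, neither list: gctagagggtgggattggggagggagaggt
The stretch of Tlx2 holds 5 CpG, those of Hey1 and Pgf 2 each, and those of Wnt10a and Pou5f1 hold 0. Within 500 bp of the start there were 96 CpG at Tlx2, 110 at Hey1, 38 at Pgf, 37 at Wnt10a and 30 at Pou5f1. The class medians were 62 with both lists, 55 with H2A.Z only, 48 with H3K27me3 only and 11 with neither. The 5 genes were chosen by coverage or by name and are not typical of their classes.

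Nearly every promoter with H3K27me3 also had H2A.Z, whereas most promoters with H2A.Z lacked H3K27me3. Both lists were called at 3546 genes (15.9% of all, interval 15.4 to 16.4) and H2A.Z alone at 9623 (43.1%, 42.4 to 43.7). H3K27me3 alone was called at 233 genes (1.04%, 0.918 to 1.18) and neither list at 8948 (40.0%, 39.4 to 40.7). H3K27me3 was called at 3779 genes (16.9%) and H2A.Z at 13169 (58.9%). Of the former, 93.8% (93.0 to 94.6) had H2A.Z, and of the latter, 26.9% (26.2 to 27.7) had H3K27me3. Among the genes without H2A.Z, 2.54% (2.24 to 2.88) had H3K27me3. The share of H3K27me3 genes with H2A.Z was at least 80.4% on every chromosome, with the lowest value on the X chromosome (45 of 56 genes) and the highest, 99.4%, on chromosome 12.

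The genes with both lists were led by transcription factors of embryonic patterning. The 10 genes with the most covered sequence included Tlx2, Gp1bb, Nptx1, Sim2, Pax6, Hoxa5, Pou4f2, Gm1337 and Wnt11. Tlx2, a homeobox gene of the enteric nervous system, had 3150 bp of H2A.Z and 4001 bp of H3K27me3, which filled the whole window. Pax6, the regulator of eye and forebrain development, had 2448 bp of H2A.Z inside an equally complete cover of H3K27me3. At Wnt11, a secreted Wnt ligand, 2275 bp of H2A.Z lay inside 3872 bp of H3K27me3. The list also held genes of other kinds, such as Gp1bb, a platelet glycoprotein, with 2855 bp and 4001 bp.

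All 40 entries for Hox genes, which set position along the body axis, had H3K27me3, and 35 of them had H2A.Z as well, against 15.9% of all genes with both. Hoxa3 is annotated as 2 genes and counts as such, and neighbouring Hox promoters share part of their windows. Hoxa5 had the most coverage, with 2736 bp of H2A.Z entirely inside 3601 bp of H3K27me3. At 20 of the 35 entries with both lists every base of H2A.Z lay inside H3K27me3. The cluster medians differed more for H2A.Z than for H3K27me3, but the H2A.Z ranges overlapped. They were 350 to 2736 bp in HoxA, 0 to 1900 bp in HoxB, 0 to 1425 bp in HoxC and 75 to 1125 bp in HoxD. Median H2A.Z coverage was 1400.5 bp over the 12 HoxA entries, 750 bp over the 9 of HoxD, 512.5 bp over the 10 of HoxB and 475.0 bp over the 9 of HoxC. Median H3K27me3 coverage ran from 2801 bp in HoxD to 3376 bp in HoxC. The 5 entries without H2A.Z were Hoxb3, Hoxb6, Hoxb7, Hoxc4 and Hoxc8, with H3K27me3 over 2276 to 3351 bp, and Hoxb8 was called by only 7 bp of H2A.Z. When every annotated start of a gene was considered, 38 of the 40 entries had H2A.Z.

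Homeobox genes outside the Hox clusters were mostly in the same class. Of 112, 100 had both lists, 8 had H2A.Z only, 3 had H3K27me3 only and 1, Six4, had neither. Msx3 had 2300 bp of H2A.Z within 3376 bp of H3K27me3 and Emx1, a gene of the cerebral cortex, 2575 and 2882 bp. The H3K27me3-only genes included Lhx2 and Phox2a, regulators of forebrain and autonomic development. Those with H2A.Z only included genes of the Pbx group, partners of Hox proteins, with 200 bp at Pbx2, 500 bp at Pbx3 and 550 bp at Pbx4. These exceptions and those named for the next families were picked after their values had been seen.

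The other families of developmental transcription factors held both lists at a share of their members above the 15.9% of all genes, but differed among themselves. All 9 Pax genes had both, although Pax4 had only 328 bp of H2A.Z and 128 bp of H3K27me3. So did 5 of 6 Gata genes, regulators of endoderm, heart and blood, with Gata1 in neither list. The counts were 12 of 17 for T-box genes, 13 of 19 for Sox genes, 26 of 38 for lineage bHLH genes and 26 of 43 for forkhead genes. Brachyury (T), which specifies mesoderm, had 1550 bp of H2A.Z and 3476 bp of H3K27me3, of which 1500 bp were shared. Sox18, a gene of vascular development, had 1850 and 3906 bp.

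The members of these families with H2A.Z only or with neither list had varied roles. Of the 12 forkhead genes with H2A.Z only, Foxm1, a regulator of mitosis, had 650 bp, Foxo3, a stress-responsive factor, 725 bp and Foxn1, of the thymus, 1275 bp. Among the 8 bHLH genes with H2A.Z only were the muscle regulators Myf5 (986 bp), Myf6 (525 bp) and Myog (875 bp). Neurod1, Neurod4, Neurod6 and Nhlh1, which act in differentiating neurons, had neither. Of 41 nuclear receptors, 19 had both lists and 19 had H2A.Z only, 46.3% each. Of all genes, 15.9% had both and 43.1% had H2A.Z only, so only the first share lay well above that of all genes. Nr2e1, a receptor of neural stem cells, combined 800 bp of H2A.Z with H3K27me3 over all 4001 bp of the window, and the progesterone receptor Pgr had 2050 and 2025 bp.

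**Figure D1:**
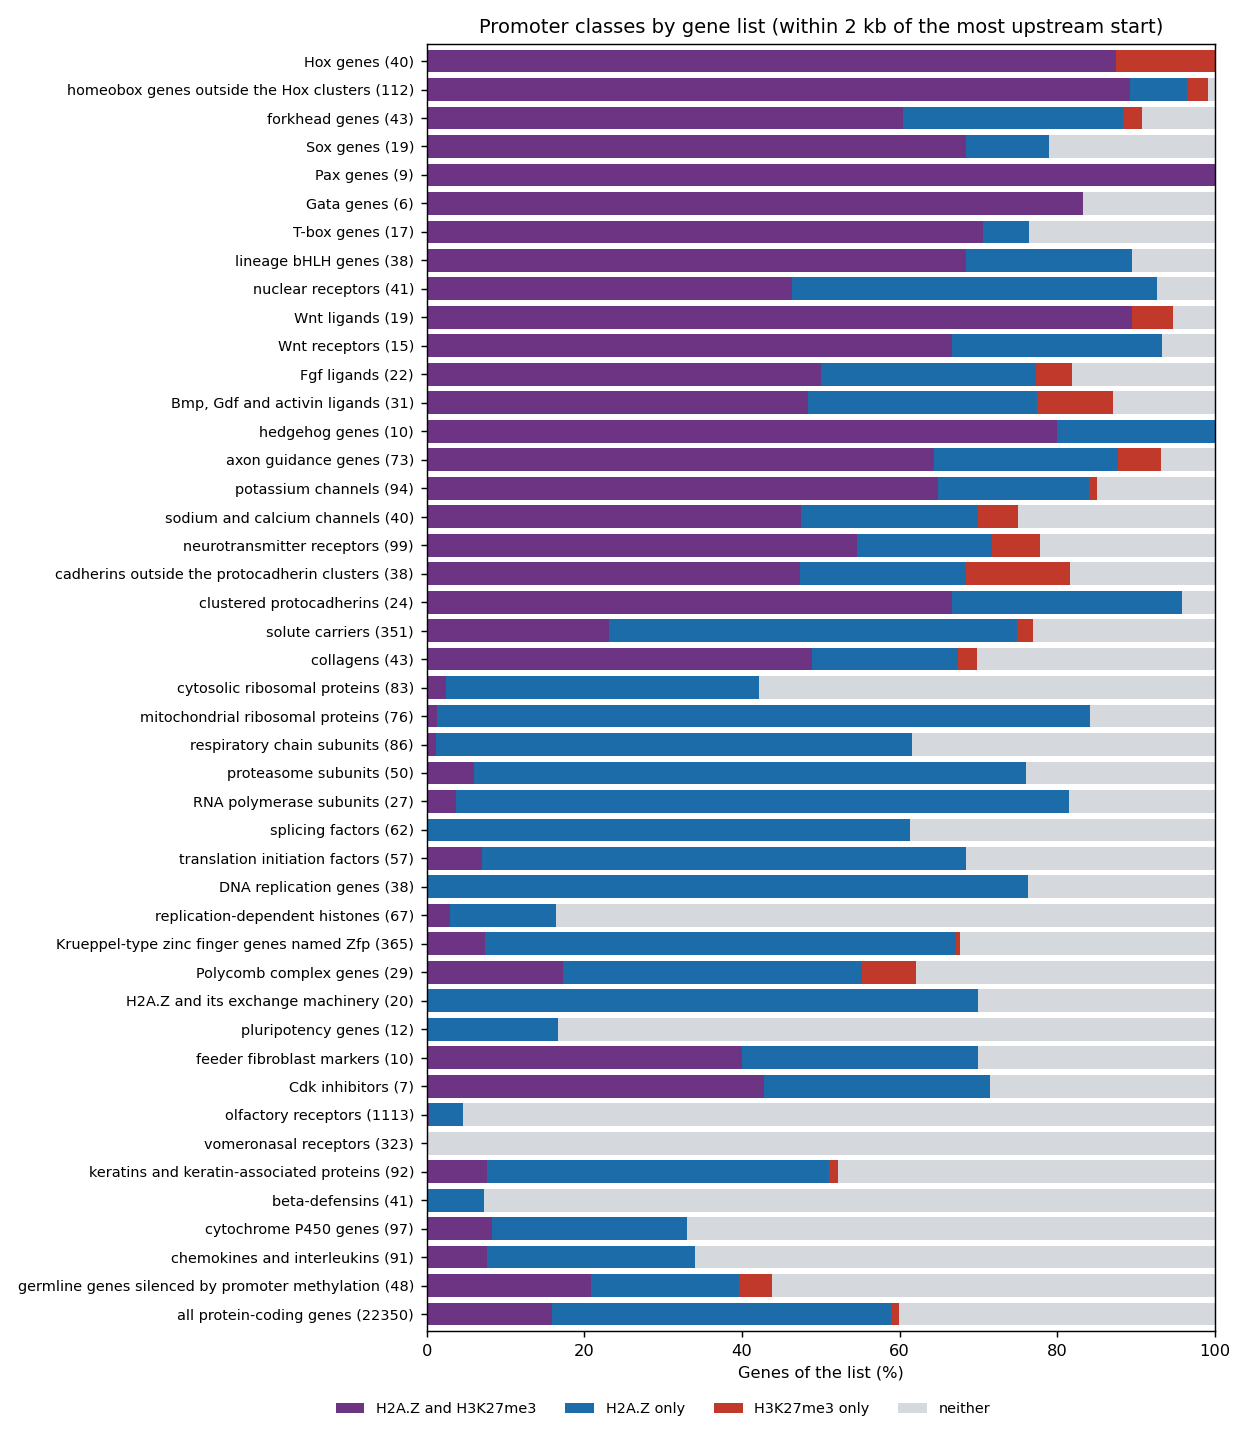
Each bar is 1 gene list, with its number of genes in parentheses, and shows the percentage of its genes with both lists (purple), H2A.Z only (blue), H3K27me3 only (red) or neither (grey) within 2 kb of the most upstream start, with all 22350 genes at the foot. Purple makes up most of the bars for patterning genes, such as 35 of 40 Hox genes, blue most of those for mitochondrial ribosomal proteins (63 of 76) and DNA replication genes (29 of 38), and grey those for olfactory and vomeronasal receptors.

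Secreted signals and their receptors also carried both calls often, beside 15.9% of all genes with both and 1.04% with H3K27me3 only. Both were called at 17 of 19 Wnt ligands, with Wnt10a in the H3K27me3 list alone and Wnt8b in neither, and at 10 of 15 Wnt receptors and co-receptors. Wnt ligands had a median of 1475 bp of H2A.Z and 3090 bp of H3K27me3, and the receptors 1000 and 750 bp. Of 10 genes of the hedgehog pathway 8 had both and 2 had H2A.Z only. The ligand gene Shh had 735 bp of H2A.Z inside a fully covered window, whereas Smo, the transducer, had 1250 bp of H2A.Z and 1225 bp of H3K27me3 that shared 150 bp. For Fgf ligands the count with both was 11 of 22, led by Fgf8 with 1500 bp of H2A.Z inside 3551 bp of H3K27me3. For Bmp, Gdf and activin ligands it was 15 of 31, with 3 more that had H3K27me3 only.

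Genes that act in the nervous system carried both calls as well. Both lists were called at 47 of 73 axon guidance genes, 61 of 94 potassium channels, 54 of 99 neurotransmitter receptors and 19 of 40 sodium and calcium channels, beside 15.9% of all genes. Nrp1, a semaphorin receptor, had 2828 bp of H2A.Z and 2575 bp of H3K27me3. The adrenergic receptor gene Adra1d had 2200 and 3705 bp. H3K27me3 without H2A.Z, a class with 1.04% of all genes, was found at 6 neurotransmitter receptors. They were Chrna5, Drd2, Gabrd, Glra1, Grin3b and Htr2c, with 25 to 975 bp. Another 22 neurotransmitter receptors (22.2%) had neither list, a share below the 40.0% of all genes.

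Adhesion and matrix genes lay close to these. Both lists were called at 16 of 24 clustered protocadherins, 18 of 38 other cadherins and 21 of 43 collagens, beside 15.9% of all genes. The cadherins held 5 genes with H3K27me3 only, a class with 1.04% of all genes. Coverage of H2A.Z where it was called had a median of 525 bp in the clustered protocadherins and 1125 bp in the other cadherins and in the collagens. Col4a1 and Col4a2 are transcribed away from each other from adjacent starts and show the same 2875 bp of H2A.Z and 2501 bp of H3K27me3. Solute carriers were nearer to the shares of all genes, 15.9% with both lists and 43.1% with H2A.Z only. Of 351 solute carriers, 81 had both lists and 182 had H2A.Z only.

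Genes of basic cell functions had almost no H3K27me3, and in most of these lists the majority of genes had H2A.Z alone. H2A.Z alone was called at 63 of 76 mitochondrial ribosomal proteins, 29 of 38 DNA replication genes, 21 of 27 RNA polymerase subunits, 35 of 50 proteasome subunits and 38 of 62 splicing factors, beside 43.1% of all genes. It was also called alone at 35 of 57 translation initiation factors and 52 of 86 respiratory chain subunits. The cytosolic ribosomal proteins departed from this, with H2A.Z only at 33 of 83 and neither list at 48, so that fewer had H2A.Z than the 58.9% of all genes. The replication-dependent histones did too, with H2A.Z only at 9 of 67 and neither list at 56, beside 40.0% of all genes with neither. Both lists were called at 0 of the replication genes and splicing factors and at 1 to 4 genes of each of these other lists. Of all genes, 15.9% had both lists and 16.9% had H3K27me3. Median H2A.Z coverage where called ran from 250 bp for cytosolic ribosomal proteins to 562.5 bp for RNA polymerase subunits, around the 500 bp of all genes with H2A.Z only. The broadest was Mrpl34 with 2325 bp. Many of these genes had the most upstream start of another gene within 4 kb, beside 17.0% of all genes. This held for 34 of the 76 mitochondrial ribosomal proteins, 38 of the 86 respiratory chain subunits and 15 of the 27 RNA polymerase subunits. It also held for 58 of the 67 histones, but for only 9 of the 57 translation initiation factors. A call in such a window may belong to the neighbouring gene, which was not tested. Among the proteasome genes with H3K27me3 were Psmb8 and Psmb9, the latter annotated as 2 genes, which encode the subunits of the immunoproteasome made by immune cells rather than the constitutive ones. Psmb9 had 1900 bp of H2A.Z and 1425 bp of H3K27me3.

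Genes of the chromatin machinery were counted next. Of 20 entries for H2A.Z and the complexes that exchange it, 14 had H2A.Z only and 6 had neither, and H3K27me3 was called at 0. The H2afz gene, which encodes H2A.Z, had 75 bp of H2A.Z and H2afv, which encodes its close relative, had 0. Vps72, the subunit that binds H2A.Z, had 900 bp. Of 29 Polycomb genes, 11 had H2A.Z only, among them the core genes Ezh2 (1000 bp) and Suz12 (425 bp), and 11 had neither, among them Eed. With 5 genes in both lists, the Polycomb genes were divided much as all genes were (43.1% H2A.Z only, 40.0% neither and 15.9% both). The H3K27me3 list covered the promoters of Cbx2 and Cbx8, subunits that read the mark, with 875 and 2976 bp, alongside 400 and 175 bp of H2A.Z. It also covered Phf19 and Yaf2 together with H2A.Z, and Bmi1 (1600 bp) and Phc2 (175 bp) without it. Of 7 Cdk inhibitors, Cdkn1c, Cdkn2a and Cdkn2c had both lists and Cdkn1b and Cdkn2b had H2A.Z only. The zinc finger genes named Zfp had H2A.Z only at 218 of 365 and both lists at 27.

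Neither list was called at most genes of the pluripotent state. Of 12 such genes 10 had neither (as did 40.0% of all genes), including Pou5f1, Nanog, Sox2, Klf4 and Zfp42. The other 2 were Lin28a with 425 bp and Esrrb with 300 bp of H2A.Z. Since a call of H2A.Z or H3K27me3 does not measure transcription, these values do not test the cell type label. The list of 10 fibroblast markers, relevant to the feeders, had 4 genes with both lists, 3 with H2A.Z only and 3 with neither. Of all genes, 15.9% had both, 43.1% H2A.Z only and 40.0% neither. The broadest fibroblast marker was Twist2, with 2800 bp of H2A.Z and 2525 bp of H3K27me3. The part of feeder chromatin in these values was not tested.

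Several receptor and tissue-specific families had neither list at most of their members. All 323 vomeronasal receptors and 1062 of 1113 olfactory receptors had neither, beside 40.0% of all genes. So did 38 of 41 beta-defensins, 60 of 91 chemokines and interleukins and 65 of 97 cytochrome P450 genes. Keratins and keratin-associated proteins were mixed, with H2A.Z only at 40 of 92 and neither at 44. Among germ cell genes 27 of 48 had neither, a count made up of Rhox genes of the X chromosome. Exceptions with both lists were Cyp26a1, which degrades retinoic acid, with 2325 bp of H2A.Z and 2975 bp of H3K27me3, and the chemokine Cxcl12 with 1425 and 2803 bp. Some genes of these families, and some histone and ribosomal protein genes, have closely similar copies elsewhere in the genome. Short reads may not be assigned uniquely to such genes, so an absent call there is uncertain. The part of read assignment in the absent calls was not tested.

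H2A.Z covered more of a promoter where H3K27me3 was also called. The mean covered sequence was 1042 bp at the 3546 genes with both lists and 591 bp at the 9623 genes with H2A.Z only, a ratio of 1.76. The medians were 975 bp (quartiles 625 and 1375) and 500 bp (275 and 800), so that the lower quartile of the former lay above the median of the latter, although the ranges overlapped with maxima of 3676 and 3405 bp. The difference lay on both sides of the start and was larger downstream, where means were 711 and 371 bp (ratio 1.91), than upstream, with 331 and 219 bp (ratio 1.51). Each gene was counted around 1 start, but more than 1 was annotated for 52.5% of genes with both lists and 54.7% with H2A.Z only. The part of further starts inside the window was not tested. The ratio was above 1 on 20 of 20 chromosomes, with a range of 1.49 to 2.10.

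The reverse held too. Where H2A.Z was called, H3K27me3 covered a mean of 1216 bp (median 1000 bp), and where it was not, 664 bp (median 350 bp), over 3546 and 233 genes. Broad H2A.Z was also found without an H3K27me3 call. Pgf, a placental growth factor, had 3405 bp of H2A.Z, the water channel Aqp6 3095 bp, the cell death gene Bcl2l11 3051 bp, the receptor subunit Il17rc 3030 bp, the liver hormone Fgf21 2785 bp and the transcription factor Runx3 2700 bp, all with 0 bp of H3K27me3 in the window. Il17rc had 275 bp of H3K27me3 in the list at 1e-12, and Bcl2l11 had H3K27me3 at -2449 bp, just outside the window.

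**Figure D2:**
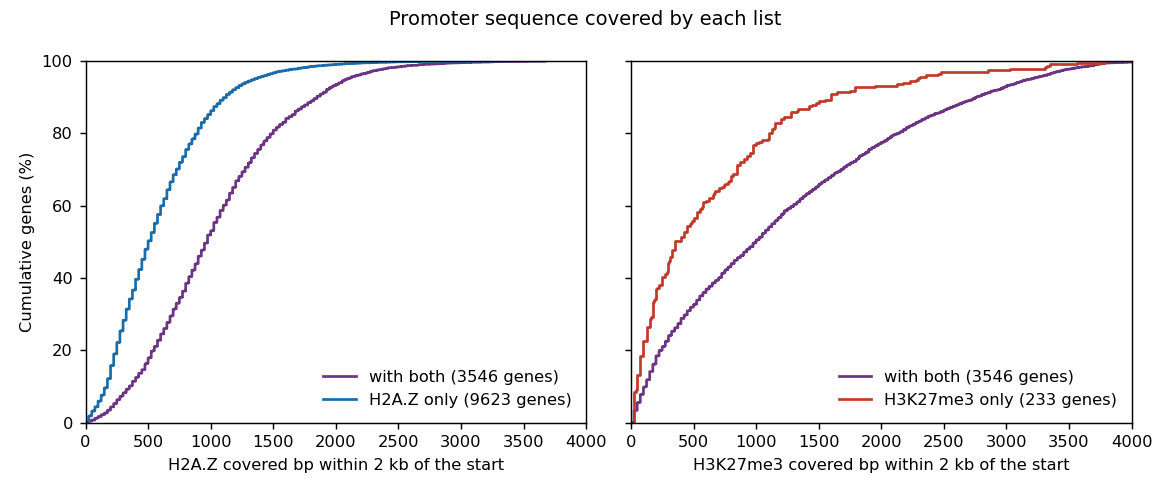
The cumulative percentage of genes is plotted against covered bp within 2 kb of the start, for H2A.Z (left) in genes with both lists (purple) and with H2A.Z only (blue) and for H3K27me3 (right) in genes with both (purple) and with H3K27me3 only (red). The purple curve lies to the right in both panels, with medians of 975 against 500 bp for H2A.Z and 1000 against 350 bp for H3K27me3.

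The amounts of both lists rose together. Among genes with 1 to 249 bp of H3K27me3, 88.9% had H2A.Z and its median coverage there was 750 bp. These values were 92.8% and 900 bp with 500 to 999 bp of H3K27me3, and 98.2% and 1250 bp with 2000 to 2999 bp. At 3000 bp or more, 252 of 258 genes (97.7%) had H2A.Z. Seen from H2A.Z, the share of genes with H3K27me3 was 9.50% with 1 to 249 bp of H2A.Z, 26.1% with 500 to 999 bp, 47.7% with 1000 to 1499 bp and 71.8% with 2000 bp or more. Over the 3546 genes with both lists the covered lengths had a Spearman rho of 0.33 and a Pearson r of 0.34, across genes that share the same 2 libraries. The relation was loose, as genes with a fully covered window such as Nr2e1 (800 bp of H2A.Z) and Tlx2 (3150 bp) show.

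The order of the lists around the start was then examined in the genes with both. H2A.Z lay at the start and H3K27me3 farther out. The bin most often covered by H2A.Z was 276 bp downstream, where 64.8% of the genes were covered, and coverage fell without a separate maximum upstream, with 48.5% in the last bin before the start. H3K27me3 had maxima on both sides, 31.7% at -650 bp and 47.5% at 976 bp, and a low of 18.8% at -50 bp. Both lists covered more sequence downstream, which held 68.2% of the H2A.Z bases and 61.7% of the H3K27me3 bases.

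**Figure D3:**
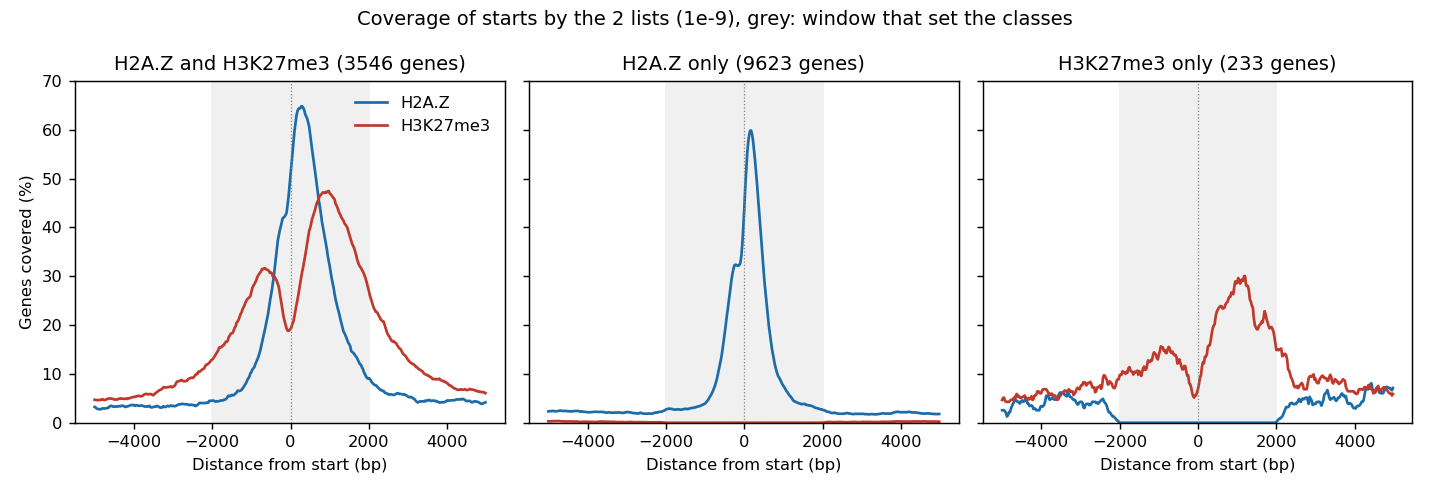
The percentage of genes covered by H2A.Z (blue) and H3K27me3 (red) is plotted against distance from the start in bp, read in the direction of the gene, for the 3 classes with a call. In genes with both lists H2A.Z peaks at 64.8% downstream of the start, at 276 bp, and H3K27me3 dips to 18.8% just upstream of it, at -50 bp, a dip also seen without H2A.Z in the right panel, while the flat lines within the grey window follow from the definition of the classes.

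Gene by gene, the nearest base of H2A.Z lay nearer to the start than that of H3K27me3 in 2498 genes (70.4%, 68.9 to 71.9), farther in 565 (15.9%) and at the same distance in 483 (13.6%), of which 437 had the start covered by both. H2A.Z covered the start itself in 1760 genes (49.6%) and H3K27me3 in 676 (19.1%). The median distance from the start was 2 bp (quartiles 0 and 163) for H2A.Z and 288.5 bp (71 and 652) for H3K27me3. H3K27me3 reached farther out, with a median outer edge at -879 and 1595 bp against -360 and 928.5 bp for H2A.Z, edges that cannot lie beyond the window. H3K27me3 extended past H2A.Z on both sides in 1397 genes (39.4%) and H2A.Z past H3K27me3 on both sides in 282 (7.95%).

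In 1301 genes (36.7%) H3K27me3 lay on both sides of an uncovered start. This central gap had a median width of 825 bp (quartiles 525 and 1275). H2A.Z was present inside it in 1160 of these genes (89.2%) and covered 42.0% of the gap, against 23.1% of the rest of the window. The gap holds the start by definition, and in genes with H2A.Z only coverage also peaked near the start (59.9% at 176 bp). A higher share in the gap therefore follows from position, and a difference at matched distance was not tested. The gap is a break between called regions, and joining regions closes it by construction where it is no wider than the distance joined. When H3K27me3 regions separated by up to 1 kb were joined, H3K27me3 covered the start in 1483 genes (41.8%), and H2A.Z lay nearer to the start in 52.5% of genes rather than 70.4%.

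The start was covered by H3K27me3 more often as the covered length grew, while the share of starts covered by H2A.Z changed little. H3K27me3 covered the start in 1.54% of genes with 1 to 249 bp of it, in 20.9% with 1000 to 1999 bp and in 63.1% with 3000 bp or more. The share of genes whose start was covered by H2A.Z lay between 44.2% and 52.8% over the classes of H3K27me3 length. The H3K27me3 values partly follow from length, since a list that fills the window covers the start.

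The lists shared much of their sequence without coinciding. Of the bases covered by H2A.Z, 45.5% lay inside H3K27me3, and 39.0% of the H3K27me3 bases lay inside H2A.Z. Per gene the share of H2A.Z inside H3K27me3 had a median of 36.1% and quartiles of 3.70% and 71.0%. All H2A.Z lay inside H3K27me3 in 321 genes (9.05%), and all H3K27me3 inside H2A.Z in 223 (6.29%). In 807 genes (22.8%) the lists shared no base, and H2A.Z was the nearer to the start in 712 of these.

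At a given distance from the start, sequence covered by H2A.Z was more often inside H3K27me3 than sequence without it. In the step from 1 to 250 bp downstream 28.0% of the H2A.Z-covered sequence was inside H3K27me3 and 15.2% of the rest. From 1001 to 1250 bp the values were 64.9% and 38.3%, and from -2000 to -1751 bp they were 41.0% and 13.0%. The ratio was above 1 in all 16 steps of 250 bp and lowest, 1.48, from -500 to -251 bp. Genes with long coverage of both lists enter both quantities, so these shares are over genes of unequal coverage.

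**Figure D4:**
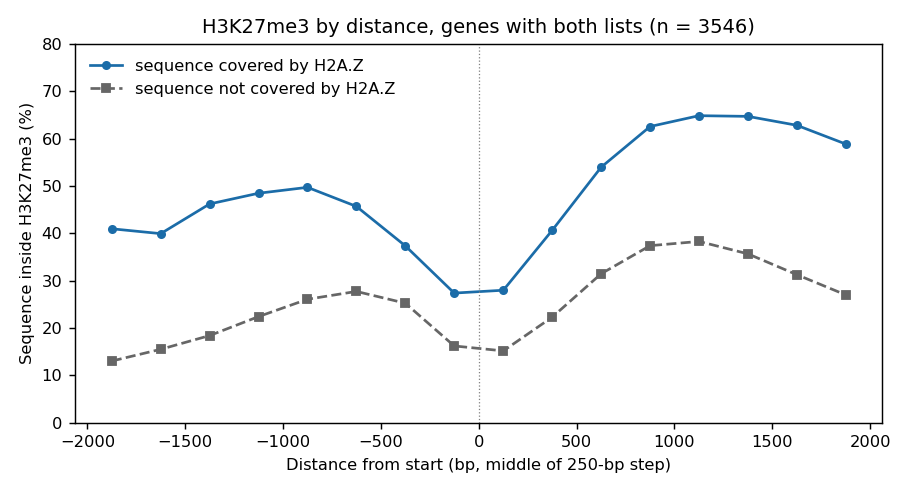
For the 3546 genes with both lists, the percentage of sequence inside H3K27me3 is plotted for each step of 250 bp by distance from the start, for sequence covered by H2A.Z (blue circles) and not covered (grey squares). The blue line lies above the grey one in all 16 steps, with 64.9% against 38.3% from 1001 to 1250 bp, and both fall near the start.

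Single genes show the extremes of this order. Among the 2117 genes with at least 500 bp of each list, Tlx2, Gp1bb and Nptx1 had all H2A.Z inside H3K27me3, over 3150, 2855 and 2742 bp. Hey1, Syt7 and Scrt1 had at least 575 bp of H2A.Z and shared 0 bp. At Hey1, a repressor induced by Notch, 1050 bp of H2A.Z lay on both sides of the start, 550 bp upstream and 500 bp downstream. The nearest base of H2A.Z was 14 bp downstream, and the nearest of 1912 bp of H3K27me3 lay 639 bp downstream. At Syt7, a calcium sensor of vesicle release, H2A.Z covered the start over 575 bp and 2351 bp of H3K27me3 flanked it on both sides. At Scrt1, a neural zinc finger repressor, the lists lay on opposite sides, with 1200 bp of H2A.Z upstream and 1700 bp of H3K27me3 downstream.

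**Figure D5:**
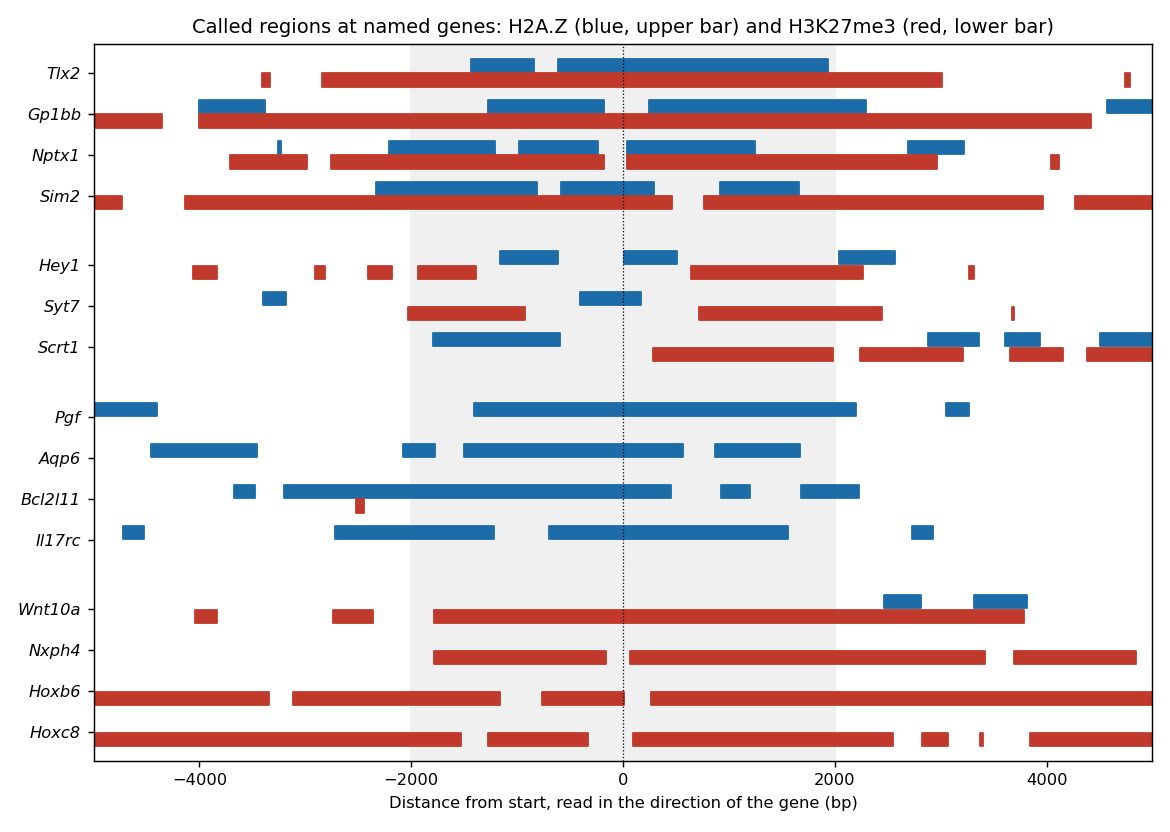
Called regions of H2A.Z (blue, upper bar) and H3K27me3 (red, lower bar) are drawn to scale against distance from the start in bp, for genes with nested lists (Tlx2 to Sim2), with lists that share no base in the grey window (Hey1 to Scrt1), with H2A.Z only (Pgf to Il17rc) and with H3K27me3 only (Wnt10a to Hoxc8). The red bar of Tlx2 spans the whole window, while the blue bars of Wnt10a begin 2461 bp downstream of the start, outside it.

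Genes that the study had examined by site-specific PCR showed different orders. At Foxa2, an endoderm regulator, 605 bp of 655 bp of H2A.Z lay inside 3526 bp of H3K27me3. At Bmp2, a secreted ligand, both lists lay downstream only, H2A.Z from 106 bp and H3K27me3 from 831 bp, and they shared 475 bp. At Zfpm2, a cofactor of Gata factors, 975 of 1575 bp of H2A.Z lay inside H3K27me3 of 1275 bp. Nagk, a sugar kinase, and Thra, a thyroid hormone receptor, had 1225 and 1050 bp of H2A.Z and 0 bp of H3K27me3.

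The 233 genes with H3K27me3 only held well-known developmental genes as well as weak calls. The 10 with the most coverage were Wnt10a, Nxph4, Hoxb6, Hoxc8, Hoxc4, Lhx2, Lrrc4b, Sync, Hoxb7 and Tgfb2. Wnt10a, a ligand for teeth and hair, had 3790 bp of H3K27me3 and Nxph4, a neuronal secreted protein, 3561 bp. Lhx2 had 3026 bp, with H2A.Z called 2526 bp upstream, and Tgfb2, a growth factor, had 2355 bp, with the nearest H2A.Z region at 1e-9 at a distance of 28846 bp. H3K27me3 covered at least 1000 bp at 54 of the genes and less than 100 bp at 44.

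H2A.Z was often close to these promoters. A region of H2A.Z lay within 5 kb of the start of 105 genes (45.1%) and more than 10 kb away for 87 (37.3%), with a median distance of 5919 bp (quartiles 3291 and 18966). Of the 122 genes with more than 1 start, 36 had H2A.Z within 2 kb of another start, as Hoxb6, Hoxc4 and Lhx2 did. In 31 genes the window held an H2A.Z region of the 1e-12 list, among them Phox2a with 275 bp and Tgfb2 with 100 bp. Neither of these applied to 170 genes. The H3K27me3 call was kept at 1e-12 in 171 genes (73.4%), compared with 3057 (86.2%) of the genes with both lists. With both lists taken at 1e-12, 147 of the 233 genes stayed in the class, against 2986 of the 3546 with both and 8888 of the 9623 with H2A.Z only.

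Genes with a call had more CpG around their starts. Within 500 bp of the start the median number of CpG was 62 in genes with both lists, 55 with H2A.Z only, 48 with H3K27me3 only and 11 with neither, and the median over all genes was 41. The observed over expected CpG ratio was nearly equal with both lists (0.682) and with H2A.Z only (0.681), lower with H3K27me3 only (0.572) and lowest with neither (0.222). When genes were divided into 10 groups of equal size by CpG number, the share with both lists rose from 0.447% in the lowest group (0 to 5 CpG) to 28.4% in the highest (93 to 180), and the share with neither went from 96.0% to 17.5%. H2A.Z only was most frequent in the middle, at 60.8% in the group with 41 to 53 CpG. The ratio of mean H2A.Z coverage between genes with both and with H2A.Z only was above 1 in all 10 groups, from 1.41 to 2.28. The highest value came from the lowest group, with only 10 genes in both lists, and the next highest was 1.96.

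The acidic patch mutant was called at 4651 genes (20.8%). By class this was 41.4% of genes with both lists, 30.0% of those with H2A.Z only, 8.15% of those with H3K27me3 only and 3.13% of those with neither. Among the genes named above, Tlx2 had 850 bp of H2A.Z-AP3, whereas Sim2 and Pgf had 0 bp.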

How the data were processed

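ChIP-Seq libraries of mouse ESCs were compared as lists of enriched regions, 1 library per group, grouped by the genotype and antibody that GEO gives. The authors aligned single-end reads to mm9 with Bowtie 0.12.3, extended them, counted them in 25-bp bins and called bins with a Poisson background model at 1e-9 and a minimal fold over input. Their methods describe the calling for H2A.Z, and how the H3K27me3 list was called is not given separately in the sources used here. They also name another antibody supplier for H3K27me3 ChIP than the label does. The deposited files give only region boundaries in bp, with no signal, so the depth and the precision it would give are unknown. Input and aligned reads were not analysed here.

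Covered bp of the 1e-9 lists were counted within 2 kb of the most upstream start of each gene of GENCODE vM1, on the same assembly. For 8 genes without a protein-coding transcript the gene boundary served as the start. Regions on the lists span 20 chromosomes. Profiles used 25-bp bins, shares carry 95% Wilson intervals, and CpG were counted in the mm9 sequence. The 44 gene lists were defined by symbol. Genes were named by fixed rules, which took up to 4 members with the most covered sequence per list, the 10 with the most in each class with a call, the 3 with the highest and lowest share of H2A.Z inside H3K27me3, and the genes of the PCR experiments. Other named genes were chosen after their values were seen. Some genes that meet these rules are not reported here. The members and lists were chosen with earlier results of these data known. The counting was tested on simulated regions. Python 3.11.15, NumPy 2.4.6, pandas 2.3.3, SciPy 1.17.1 and Matplotlib 3.10.9 were used. Alternatives changed the threshold, the window, the start, the minimum overlap, the joining of regions and the genes counted.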

Additional observations from a re-analysis of the deposited data

Results flagged for a closer look

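Each of these values drew attention as a signal in data outside the main comparison, the stricter H2A.Z list or the H2A.Z-AP3 library, at promoters where the main lists called no H2A.Z. Of the 233 genes with H3K27me3 only, 31 (13.3%, interval 9.53 to 18.3) held an H2A.Z region of the 1e-12 list, over a median of 250 bp. The same was found at 382 (4.27%) of the 8948 genes with neither list, over a median of 200 bp. The mutant H2A.Z-AP3 appeared at 19 of the genes with H3K27me3 only (8.15%, interval 5.28 to 12.4), over a median of 125 bp. It was called at 280 of the genes with neither list (3.13%, interval 2.79 to 3.51), over a median of 150 bp.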

How the results depend on the processing

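No paired analysis was possible because each group had 1 library. Over 10 alternatives the number of genes with both lists ranged from 2986 to 3971, with H2A.Z only from 7338 to 10376 and with H3K27me3 only from 173 to 263, each within 1.5 times the main count. The share of H3K27me3 genes with H2A.Z (93.8%) was 91.9% in a window of 1 kb, 95.8% in 5 kb and 94.8% with any start of the gene. The ratio of mean H2A.Z coverage (1.76) was 1.78 at 1e-12, 1.78 with the union of the thresholds, 1.53 in 1 kb, 1.90 in 5 kb, 1.90 with any start, 1.73 with at least 100 bp covered, 1.75 on autosomes and 1.81 without crowded starts. The share of H2A.Z inside H3K27me3 (45.5%) was 40.0% at 1e-12, 45.3% with the union, 46.6% in 1 kb, 42.6% in 5 kb, 42.3% with any start, 48.3% with at least 100 bp, 59.0% with H3K27me3 joined across 1 kb, 45.7% on autosomes, 45.7% without chromosomes 6 and 8 and 46.2% without crowded starts. H2A.Z lay nearer to the start (70.4%) in 73.8% of genes at 1e-12, 68.6% in 1 kb and 52.5% with joined H3K27me3, and this was not run for other starts. Joining and wider windows add covered sequence by construction, and otherwise the cause was not tested. Of 176 counts of members with H2A.Z or with H3K27me3 over the 44 gene lists, under 2 alternatives chosen after seeing the data, 10 moved by over 1.5 times. At 1e-12 H2A.Z was called at 1 vomeronasal receptor, and H3K27me3 without H2A.Z at 3 of the cadherins rather than 5 and at 1 of the Bmp, Gdf and activin ligands rather than 3. Unknown depth limits every absent call.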
